A study of Ovis aries with 91 samples.

Results

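Cardiomyocytes isolated from the left and the right atrial appendage of control sheep were compared within each sheep. Every left and right appendage column of the sheep S3, S4 and C1 in the table of isolated cardiomyocytes was taken, which gave 6 of the 48 columns of the series. These 6 columns stand for 12 of the 91 listed samples, since the labels list each library as a pair of technical replicates and the deposited columns merge them. The design gives 3 left-right pairs, 1 per sheep, and the sheep is the replicate.

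The series measured RNA by sequencing in the atria of sheep (Ovis aries), as whole tissue and as isolated cardiomyocytes of both appendages and as whole tissue of the posterior left atrium. The control sheep used here were S3 and S4, labelled sham, and C1, labelled control, although the column headings name C1 a sham as well. The other sheep with isolated cardiomyocytes had a pacing device in the right atrium that drove it fast enough to bring on atrial fibrillation. They were in a state named transition (D23, D24 and D27) or chronic (D16, D19 and D20). The series holds further sheep in the other preparations. The sources used here do not give genotype, breed, age, sex, the time spent in each state, or whether the sham sheep carried a device that stayed off. The control cardiomyocyte libraries held 7325726 to 12434418 reads over the listed genes, and the 10 most abundant genes took 18.8% to 21.1% of them. The labelled cell type could not be checked against marker genes, because 0 of the 13262 gene identifiers matched a gene symbol in the reference table that was given.

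The appendages are the muscular pouches of the atria. The left and right atrial chambers arise from different parts of the embryonic heart field, and their muscle keeps different transcription programmes in the adult. The secreted factor BMP10 is known as a product of right atrial muscle, and the sinus node lies on the right. Genes are not given by symbol, for want of a match, and are described below by their level, their behaviour in each sheep and their values in the other preparations. Levels are log2 CPM (reads scaled to a common library size), differences are left minus right on the log2 scale, so that 1 is a 2-fold difference, and a gene was called when its adjusted p was at most 0.05 (limma with sheep as a block, Benjamini-Hochberg over all genes tested).

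Sheep C1 stood apart from both shams on the first principal component, and the shams stood apart from each other on the third. On the first principal component of the 6 libraries, which held 31.2% of the variance, the C1 libraries lay at 23.7 (right) and 37.2 (left), whereas the 4 libraries of S3 and S4 lay between -27.3 and 1.92. The second component, with 28.1% of the variance, placed the left library above the right one in each sheep, at 35.4 against 1.77 in S3, 16.9 against -32.1 in S4 and 1.43 against -23.4 in C1. On the third component, with 23.7% of the variance, the libraries of S4 lay at 19.2 (right) and 33.4 (left). Those of S3 lay at -25.9 and -9.99, and those of C1 at -19.2 and 2.48. Over all genes the sheep accounted for 54.5% of the sum of squares, the side for 27.1% and the remainder for 18.4%. These shares rest on 2, 1 and 2 degrees of freedom, so their sizes cannot be compared directly. Whether the label of C1 has a part in this was not tested.

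Left and right cardiomyocytes of control sheep differed in a small share of genes, evenly divided between the sides in the fit of all 3 sheep. Of 12333 genes tested, 314 were called, or 2.55%. Of these, 157 were higher in the left appendage (1.27%) and 157 in the right (1.27%), while the median difference over all genes was 0.0033. A further view of the same fit is that 2075 genes had an unadjusted p under 0.05. The left-higher genes had a median difference of 0.90 and ranged from 0.41 to 6.53. The right-higher genes had a median of -0.84 and ranged from -12.05 to -0.36. More than 2-fold differences were seen in 70 left-higher and 59 right-higher genes, more than 4-fold in 24 and 12, and more than 8-fold in 13 and 3. The count rested strongly on which sheep were used: it was 956 without C1 and 21 without S3, and it was 20 in a fit without the sheep term. The split of left to right was 414 to 542 without C1, 12 to 9 without S3 and 175 to 139 without S4. Another 204 genes differed by more than 2-fold without passing the test, and 179 of those had the same direction in all 3 sheep.

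**Figure D1:**
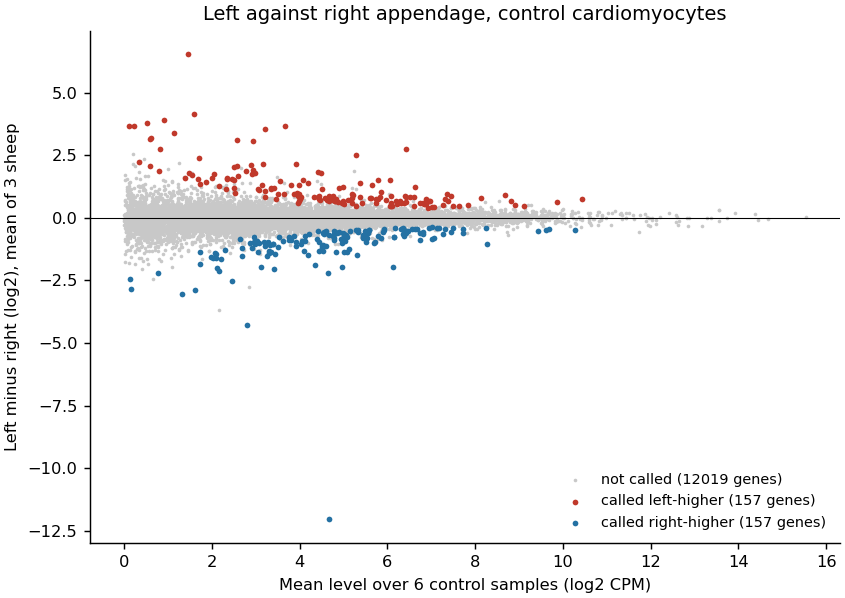
Each point is 1 of 12333 genes; the x axis is its mean level over the 6 control cardiomyocyte libraries (log2 CPM) and the y axis its left minus right difference (log2, mean of 3 sheep). The 157 left-higher and 157 right-higher genes lie on both sides of 0 at all levels, and a single gene lies at -12.05.

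Only 4 genes are named here by identifier, the first of each side by the size of the difference among well-expressed called genes with the same direction in all 3 sheep. Their functions are not given because the identifiers matched no symbol.

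ENSOARG00000007268 was the left-higher gene with the largest difference among those above the median level. Its left levels were 7.72 log2 CPM in S3, 8.63 in S4 and 7.01 in C1, and its right levels were 5.13, 6.09 and 3.92. All left values lay above all right values, with C1 lowest on both sides. The mean was 7.78 ± 0.81 (SD, n = 3) on the left and 5.05 ± 1.09 (SD, n = 3) on the right. The difference was 2.74 ± 0.12 (SE) or 6.66-fold, with a limma adjusted p of 5.06e-05. Here and below, the SE of a difference is that of limma, which also draws on the spread of other genes. The difference per sheep was 2.59, 2.53 and 3.09, so the sheep varied more in the level of this gene than in the side difference.

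ENSOARG00000012705 came next among the left-higher genes. Left levels were 6.24 log2 CPM in S3, 7.15 in S4 and 6.26 in C1, against right levels of 3.65, 4.39 and 4.04. The groups did not overlap, and S4 was highest on both sides. The difference was 2.52 ± 0.12 (SE), or 5.75-fold, with a limma adjusted p of 8.76e-05 and per-sheep values of 2.59, 2.76 and 2.21.

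ENSOARG00000019859 showed the largest difference of all 12333 genes and was at very low levels in left cardiomyocytes. It had 10, 2 and 2 reads in the left libraries of S3, S4 and C1, and 20410, 10869 and 10634 reads in the right libraries. In level these were 0.12, -1.77 and -2.43 log2 CPM on the left and 11.10, 10.52 and 10.45 on the right, so the right values lay within 1 log2 unit of each other while the left values rested on very few reads. With the reads of all 3 sheep summed and scaled for depth, the right level was 3900 times the left (95% interval 2330 to 7140, counting error only). The same ratio was 2130 (1160 to 4440) in S3, 6270 (1740 to 51800) in S4 and 9410 (2600 to 77700) in C1, and these intervals overlap. The fitted difference was -12.05 ± 0.29 (SE), with a limma adjusted p of 1.23e-06.

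ENSOARG00000018367 was the next right-higher gene by the same rule. Left levels were 4.25 log2 CPM in S3, 2.85 in S4 and 3.54 in C1, and right levels were 5.90, 5.04 and 6.27. Every right value lay above every left value, and S4 was lowest on both sides. The difference was -2.19 ± 0.19 (SE), which is 4.55-fold, with a limma adjusted p of 0.00212 and per-sheep values of -1.64, -2.19 and -2.73. For this gene and for ENSOARG00000007268 the call was lost in the fit without the sheep term, at adjusted p values of 0.153 and 0.218, whereas the other two were called under every alternative tried.

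**Figure D2:**
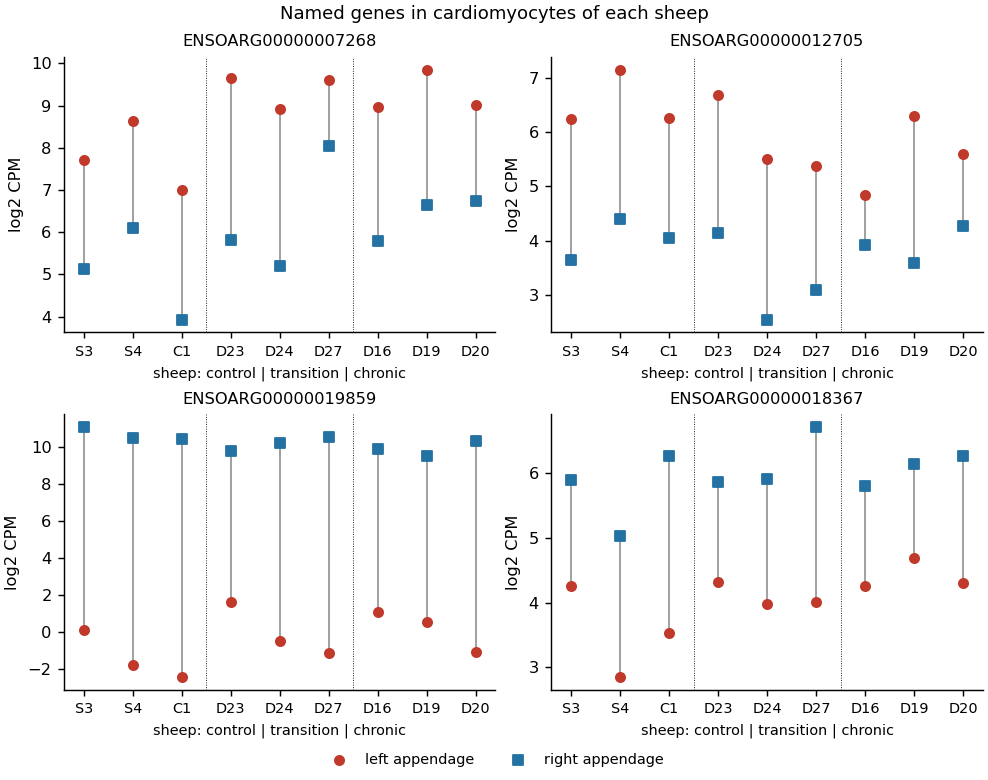
Level (log2 CPM, y axis) of the 4 named genes in left (circles) and right (squares) cardiomyocytes of each sheep (x axis), with a line joining the pair; dotted lines divide control, transition and chronic sheep. The order of the sides is the same in all 9 sheep for each gene.

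The largest differences, that of ENSOARG00000019859 included, were found among genes with few reads on the lower side. The gene with the second largest difference was left-higher, at 7.15 in S3, 6.93 in S4 and 5.52 in C1, from 878 reads on the left and 7 on the right over the 3 sheep. The third was right-higher, with 55 reads on the left and 755 on the right and differences of -5.18, -3.68 and -3.95. The fourth was left-higher, with 415 reads against 16, and its 3 differences lay close together at 4.07, 4.29 and 4.13. Among the 20 largest left-higher differences, from 2.16 upward, 11 genes had a right level under 1 CPM, and among the 20 largest right-higher differences, from 1.59 upward in size, 5 had a left level under 1 CPM. No gene tested, called or not, was at 0 reads throughout on either side.

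Calls became more frequent as the level rose, while the differences became smaller. Genes were divided into 4 classes of equal size by mean level, with bounds at 2.35, 3.92 and 5.37 log2 CPM. The share called was 1.36% in the lowest class, then 2.14%, 3.02% and 3.67% in the highest. The median SE of a difference fell in the same order, from 0.31 to 0.17, 0.12 and 0.087, and so did the median size of the difference over all genes, from 0.28 to 0.17, 0.12 and 0.11. Left-higher genes numbered 26, 32, 41 and 58 from the lowest to the highest class, and right-higher genes 16, 34, 52 and 55. The smallest difference called was 0.36 in size, and the median size was 0.87 among called genes against 0.15 among the others.

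The called genes made up a small part of the RNA on both sides. Left-higher genes took 1.43% of the reads of the left library and 0.915% of the right in S3, 1.49% and 0.790% in S4, and 1.503% and 0.901% in C1. Right-higher genes took 0.867% on the left and 1.57% on the right in S3, 0.864% and 1.65% in S4, and 0.850% and 1.35% in C1. The order follows from how the genes were chosen; the shares show that S4 had the widest gap in each direction and C1 the narrowest for right-higher genes.

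The 3 sheep agreed only in part on the direction of genes over the whole table. A higher left level in all 3 sheep was seen in 2491 genes (20.2%) and a higher right level in all 3 in 2325 (18.9%), and the other genes were divided. Every left library lay above every right library in 812 genes (6.58%), and every right above every left in 801 (6.49%). All 314 called genes had the same direction in the 3 sheep, and the 6 libraries did not overlap for 113 of the left-higher and 111 of the right-higher genes. Across 12333 genes the differences of S3 and S4 had a Pearson r of 0.47 and a Spearman rho of 0.36. Those of S3 and C1 had 0.36 and 0.22, and those of S4 and C1 had 0.36 and 0.24. Genes are not independent replicates, and within a pair of sheep no library is shared.

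Sheep S4 gave the widest side differences, while S3 and C1 were close over all genes and C1 was the narrowest among called genes. The SD of the difference over all genes was 0.59 in S4, 0.49 in S3 and 0.48 in C1, and 915, 556 and 534 genes differed by more than 2-fold. Among left-higher genes the median difference was 0.93 in S3, 1.07 in S4 and 0.85 in C1. Among right-higher genes it was -0.79, -0.99 and -0.64. S4 had the largest of the 3 differences in 83 of 157 left-higher and 86 of 157 right-higher genes, and C1 the smallest in 69 and 81. Over all 12333 genes, counted in the same way for each side, S4 had the largest in 4571 and 4062. C1 had the smallest in 4366 and 3826. The S4 libraries were also among the shallower ones, with 7325726 reads on the right and 8728179 on the left; the part of depth in this was not tested. Of the 3984 genes higher on the left in both shams, 1493 were higher on the right in C1, and of the 3684 higher on the right in both shams, 1359 were higher on the left in C1.

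**Figure D3:**
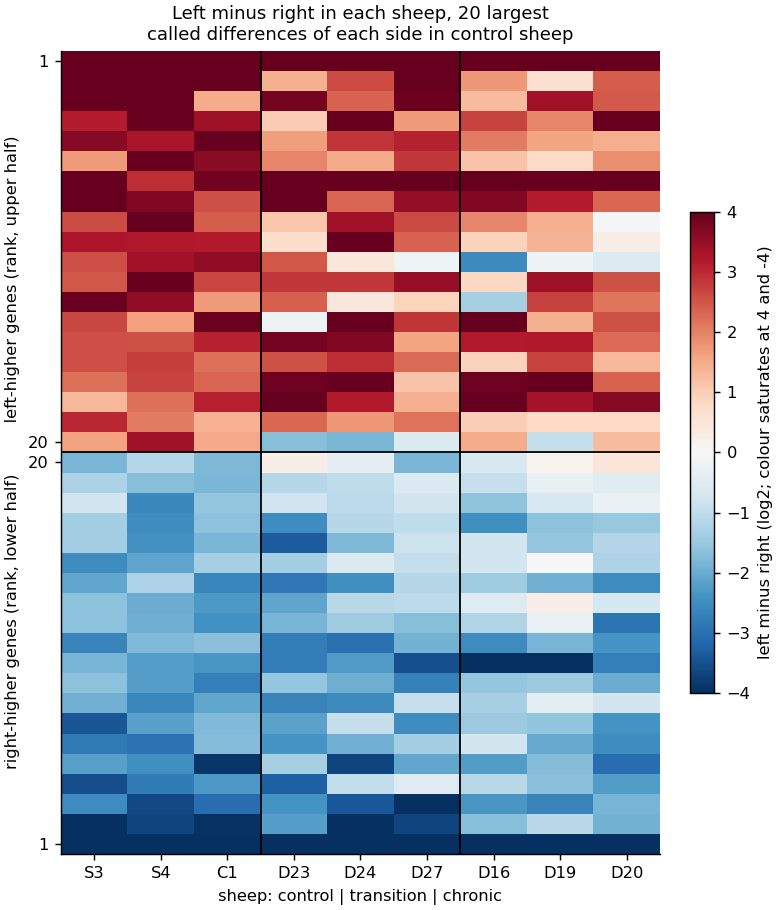
Left minus right difference (log2, colour, limited to between -4 and 4) of the 20 largest left-higher genes (upper rows) and the 20 largest right-higher genes (lower rows) of control cardiomyocytes, in each of 9 sheep (columns). In the paced sheep, 15 of the 20 left-higher and 17 of the 20 right-higher genes kept their direction in all 6 animals. Of all genes, 10% were higher on the left and 10.5% on the right in all 6.

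The side difference of control cardiomyocytes was then read in the cardiomyocytes of the 6 paced sheep, which had no part in choosing the genes. Most genes kept their side. Of the left-higher genes, 151 were tested in paced sheep, and 102 were called left-higher there (67.5%), where 9.01% of all genes were. Of the 157 right-higher genes, 111 were called right-higher (70.7%), against 10.1% of all genes. Higher in the same appendage in all 6 paced sheep were 89 of the 157 left-higher genes (56.7%, against 10% of all genes) and 104 of the 157 right-higher genes (66.2%, against 10.5%). The median difference of left-higher genes was 0.90 in control and 0.56 in paced sheep, and that of right-higher genes was -0.84 in both. Since these genes were chosen for their values in the control sheep, a smaller value elsewhere is not a test of a change.

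The 4 named genes kept their side in paced cardiomyocytes. ENSOARG00000007268 differed by 2.96 ± 0.24 (SE, n = 6 pairs, range 1.57 to 3.84, limma adjusted p 1.93e-05) and ENSOARG00000012705 by 2.12 ± 0.19 (0.92 to 2.96, adjusted p 2.62e-05). The difference of ENSOARG00000019859 was -9.95 ± 0.40 (-11.66 to -8.18, adjusted p 1.79e-07). ENSOARG00000018367 differed by -1.86 ± 0.13 (-2.71 to -1.46, adjusted p 1.37e-05). None of the 4 passed the test of a different side difference in paced than in control sheep: the paced minus control values were 0.22 ± 0.40, -0.40 ± 0.31, 2.10 ± 0.70 and 0.33 ± 0.26 (SE), with limma adjusted p values of 0.871, 0.634, 0.248 and 0.649.

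In paced cardiomyocytes 2341 of 12258 genes were called (19.1%), from 6 pairs rather than 3, with 1104 left-higher and 1237 right-higher. Scaled by library totals instead, the split was 511 to 1909. The count was 1439 without D16 and without D19, and 355 without the sheep term. Read in the control sheep, the paced left-higher genes had a median difference of 0.15, and 857 of the 1094 tested there (78.3%) were higher on the left by the mean. The paced right-higher genes had a median of -0.30 in controls, and 1064 of 1228 (86.6%) were higher on the right. Of these genes, 102 (9.32%) and 111 (9.04%) were called on the same side in controls, where 1.27% of all genes were called on each side. The control medians differed between the sheep: 0.16 in S3, 0.28 in S4 and 0.021 in C1 for the left-higher genes, and -0.31, -0.61 and -0.054 for the right-higher ones. C1 thus lay near 0 for both lists. At equal numbers of pairs, 3 in each state, 554 genes were called in transition sheep (4.54%) and 1535 in chronic sheep (12.4%), beside the 314 of the control sheep.

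**Figure D4:**
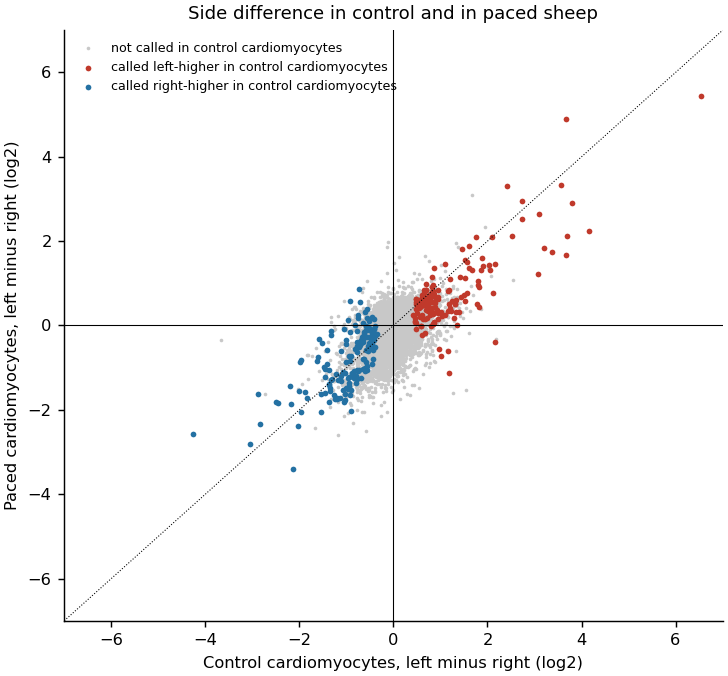
Left minus right difference (log2) of 12050 genes in control cardiomyocytes (x axis, mean of 3 sheep) and paced cardiomyocytes (y axis, mean of 6 sheep); 1 gene lies outside the axes and the dotted line marks equal values. Most left-higher (red) and right-higher (blue) genes of control sheep lie in the quadrants of the same sign.

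A different side difference in paced than in control cardiomyocytes was called in 15 of 12279 genes (0.122%), and 1551 had an unadjusted p under 0.05. By their means, 12 of the 15 were higher on the right in control sheep and 3 on the left, and 13 had means of opposite sign in control and paced sheep, as had 36.2% of all genes. These signs come from the contrast that chose the genes and are a description. One gene was higher on the left in each control sheep, at 0.82 in S3, 1.54 in S4 and 1.21 in C1, and higher on the right in each of the 6 paced sheep, from -1.81 to -0.22. Its paced minus control value was -2.31 ± 0.28 (SE, limma adjusted p 0.00772). The gene with the next largest value went the other way, at -0.65 in control and 0.88 in paced sheep, a change of 1.53 ± 0.19 (SE, adjusted p 0.00772). Of the 15, 6 were control calls, as were 2.52% of all genes in this fit. The count of 15 fell to 0 without S4, 5 without S3, 5 without C1, 6 without D24 and 4 without D27, rose to 91 without D20, and was 1 without the sheep term. It was 12 without D16, 11 without D19 and 22 without D23.

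The difference from control was called more often in chronic sheep. The chronic minus control contrast called 82 genes (0.668%) and the transition minus control contrast 1 (0.00814%), with 1850 and 873 genes at an unadjusted p under 0.05. Both contrasts use the same 3 control sheep, and the chronic and transition values were not tested against each other here. Of the 82 genes, 66 were higher on the right by the control mean and 16 on the left, and 71 had the opposite sign in chronic sheep, as had 38.8% of all genes. Their median size was 0.29 in control and 0.83 in chronic sheep, beside 0.15 and 0.23 over all genes. Control calls made up 17 of the 82 (20.7%, against 2.52% of all genes). With library totals 56 were called, and the direction split went from 60 and 22 to 20 and 36. Leaving out 1 sheep gave 19 (S3), 88 (S4), 10 (C1), 36 (D16), 18 (D19), 229 (D20), 123 (D23), 88 (D24) or 41 (D27). The fit without the sheep term gave 1. The single transition call was a more right-sided difference in transition sheep. No gene was called without S3, S4, C1, D16, D23 or D27 or without the sheep term (0 in each case), 1 gene was called in the other direction without D24, and 3 were called without D19.

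Whole tissue of the same appendages of the same 3 control sheep holds the other cells of the atrial wall as well as the muscle cells. There, 603 of 12317 genes were called (4.9%), with 185 left-higher (1.5%) and 418 right-higher (3.39%). The right-higher genes outnumbered the left-higher ones, where the cardiomyocytes of the 3 sheep gave 157 on each side. The cardiomyocyte split was 414 to 542 without C1 and 175 to 139 without S4. The tissue count was 1232 without S3, split 640 to 592, and with library totals the tissue split was 105 to 608. The tables were normalized separately, and no test was made between them. In bulk samples fewer cells of a type and less RNA per cell cannot be told apart.

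Of the cardiomyocyte left-higher genes, 151 were tested in whole tissue, and 76 (50.3%) were called left-higher there and 7 right-higher. Of the right-higher genes, 150 were tested, 61 (40.7%) were called right-higher and 0 left-higher. Among all genes tested in both preparations, 1.53% were called left-higher in whole tissue and 3.22% right-higher. Among the larger sets of cardiomyocyte calls made without C1, the shares called on the same side in whole tissue of the 3 sheep were 28.86% (left) and 27.49% (right). Higher on the same side in all 3 sheep in whole tissue were 118 of the left-higher (78.1%, against 21.1% of all genes) and 97 of the right-higher genes (64.7%, against 17.8%). The median difference in whole tissue was 0.75 for left-higher and -0.60 for right-higher genes, beside 0.90 and -0.84 in cardiomyocytes. Across 11784 genes the mean differences in the preparations had a Pearson r of 0.49 and a Spearman rho of 0.37. Within a sheep, Pearson r was 0.38 in S3, 0.36 in S4 and 0.22 in C1, with the animal shared and the libraries separate. Spearman rho was 0.26 in S3, 0.28 in S4 and 0.064 in C1.

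The named genes differed in how closely both preparations matched. ENSOARG00000007268 differed by 2.33 ± 0.22 (SE, limma adjusted p 0.000379) in whole tissue and ENSOARG00000018367 by -1.97 ± 0.33 (adjusted p 0.0066), near their cardiomyocyte values. ENSOARG00000019859 differed by -11.90 ± 0.19 (adjusted p 4.07e-11), with 12 reads on the left and 53484 on the right over the 3 sheep. ENSOARG00000012705 had a difference of 0.81 ± 0.14 (adjusted p 0.00846) in whole tissue beside 2.52 in cardiomyocytes. In paced sheep its level was higher in whole tissue than in cardiomyocytes, by 1.57 on the log2 scale, where the median over all genes was 0.38. The same value was 1.48 for ENSOARG00000019859, 0.56 for ENSOARG00000007268 and 0.18 for ENSOARG00000018367. A link between this value and the match of the preparations was not tested.

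Genes called in whole tissue were next read in the cardiomyocytes, where 1.27% of all genes were called on each side. Of the 185 left-higher tissue genes, 180 were tested in cardiomyocytes, where 176 were higher on the left by the mean (97.8%), 76 were called left-higher (42.2%) and 0 right-higher. Their median was 0.95 in tissue and 0.60 in cardiomyocytes. Of the 418 right-higher tissue genes, 379 were tested in cardiomyocytes, 260 were higher on the right (68.6%), 61 were called right-higher (16.1%) and 7 left-higher (1.85%). Their median was -1.33 in tissue and -0.30 in cardiomyocytes, at -0.53 in S3, -0.48 in S4 and 0.048 in C1. Of these 379, 112 (29.6%) were among the 500 genes most enriched in whole tissue over cardiomyocytes in paced sheep, and so were 3 of the 180 left-higher ones (1.67%), where the list holds 4.17% of all genes with a value.

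**Figure D5:**
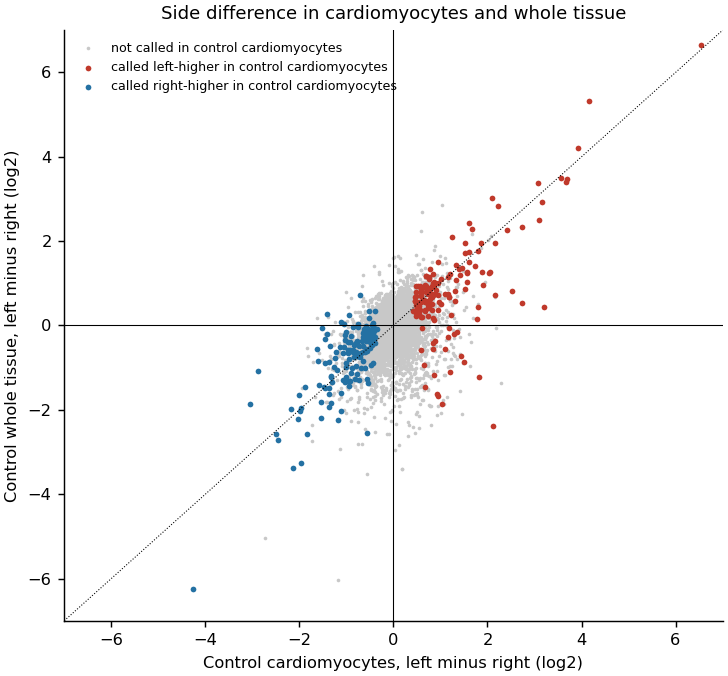
Left minus right difference (log2) of 11784 genes in control cardiomyocytes (x axis) and control whole tissue (y axis), each the mean of the same 3 sheep; 1 gene lies outside the axes and the dotted line marks equal values. Left-higher (red) and right-higher (blue) cardiomyocyte genes mostly share the sign in tissue, and 7 red genes were called right-higher there, as were 3.22% of all genes shown.

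The cells other than muscle that may remain in a cardiomyocyte preparation were followed through the 500 genes most enriched in whole tissue, at least 1.34 higher on the log2 scale than in cardiomyocytes of 4 paced sheep. No marker genes could be matched, so the list stands for no named cell type. These genes took 0.496% of reads on the left and 0.753% on the right in S3, 0.586% and 0.675% in S4, and 0.841% and 0.742% in C1. The shams thus held more on the right and C1 more on the left. Their median difference was 0.047 over the 3 sheep, at -0.060 in S3, -0.046 in S4 and 0.20 in C1, and 11 were called left-higher (2.2%) and 5 right-higher (1%), where 1.27% of all genes were called on each side. Of the 7 genes called left-higher in cardiomyocytes and right-higher in tissue, 5 belong to this list. Those 7 lay between 0.67 and 2.12 in cardiomyocytes and between -2.39 and -1.18 in tissue, and 1 of them was called left-higher in paced cardiomyocytes. The part of remaining other cells in these results was not tested.

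The 500 genes most enriched in cardiomyocytes, at least 0.80 on the log2 scale above whole tissue in the same paced sheep, held more right-higher calls. Called right-higher were 29 (5.8%) and left-higher 10 (2%), where 1.27% of all genes were called on each side, and the median difference was -0.041. Their summed share of reads was higher on the right in each sheep, at 10.3% against 9.48% in S3, 11.0% against 9.95% in S4 and 9.27% against 9.07% in C1. The share of the list called right-higher was 13.54% without C1, where 4.4% of all genes were, and 0.202% without S3, where 0.0727% were. It was 1% with the spread pooled over 9 sheep as a random effect (0.527% of all genes) and 0.4% without the sheep term (0.073%).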

How the data were processed

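Libraries were made with the Illumina NEBNext Ultra kit, per the labels, and bcl2fastq, cutadapt, RSEM and limma were among the tools used, per the submitters' processing notes, which give no versions. How technical replicates were merged, the aligner and the genome build were not given in the sources used here. Values deposited by the authors were log2, 1 column per library. All 238716 cardiomyocyte and 237366 whole tissue values equalled whole reads (within 0.05) plus 0.5, on the CPM scale of a rescaled library (scaling 0.959 to 1.08 in the control cardiomyocytes), so reads were recovered for depths and alternatives. The posterior left atrium table was not used.

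Genes with a mean log2 value of at least 0 were tested with limma 3.58.1 in R 4.3.3 (mean-variance trend, sheep as a fixed block, residual df 2, prior df 6.16), with Benjamini-Hochberg adjustment and a threshold of 0.05. Left and right samples carry the same sheep label. Deviations of the left and right libraries from the side means correlated at 0.544 (S3), 0.425 (S4) and 0.519 (C1) within sheep and at -0.38 to -0.167 between sheep. The deviations of a side sum to 0 over the 3 sheep, so positive values within sheep bring negative ones between sheep. P-values and the SE of a difference rest on the spread between these sheep, moderated by limma with that of other genes. The prior df of 6.16 outweighs the residual df of 2, so they do not measure the spread of the 3 sheep alone. The SD of the 3 differences was 0.30 for ENSOARG00000007268, 0.28 for ENSOARG00000012705, 0.97 for ENSOARG00000019859 and 0.54 for ENSOARG00000018367. Chi-square per degree of freedom between libraries of a side was 14.7 to 33.7, so no pair was a repeat. The paced minus control contrast was fitted on all 18 cardiomyocyte columns with sheep as a block and a side effect per state. Named genes are the first 2 of each side by size among called genes above the median level of 3.92 with the same direction in 3 sheep (99 left and 107 right were eligible). Gene and marker lists by symbol were not used, since 0 identifiers matched. The comparison, lists and tests were chosen with earlier results of these data known.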

Additional observations from a re-analysis of the deposited data

Results flagged for a closer look

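The side difference of cardiomyocytes was tested between paced and control sheep, and 15 genes differed at an adjusted p of at most 0.05 (limma). Between chronic and control sheep 82 genes differed, and between transition and control sheep 1 did. All of these counts changed by more than 1.5 times when single sheep were left out: between 0 and 91 for the 15, between 10 and 229 for the 82, and between 0 and 3 for the 1.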

How the results depend on the processing

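With 3 pairs the residual spread has 2 degrees of freedom, and the number of calls moved far more than the differences. The 314 control calls became 151 (86 left, 65 right) with the spread pooled over 9 sheep and sheep as a random effect, 20 with no replicate block (unpaired), and 478 (210 left, 268 right) with 10 reads added before the log. Leaving out a sheep gave 21 to 956 (without S3 and without C1). The other scalings, weights, filters and the fixed block over 9 sheep gave counts within 1.5 times. In paced cardiomyocytes the 2341 calls became 355 with no replicate block and 1439 to 2616 with a sheep left out. The 15 paced minus control calls became 1 with no replicate block, 6 with library totals, 9 with median-of-ratios scaling and 0 to 91 with a sheep left out. The 603 whole tissue calls became 185 with no replicate block and 445 to 1232 with a sheep left out. The difference of ENSOARG00000007268 lay between 2.56 and 2.84 over 15 alternatives, that of ENSOARG00000012705 between 2.40 and 2.68, that of ENSOARG00000019859 between -12.59 and -10.23 and that of ENSOARG00000018367 between -2.46 and -1.92. The fits with a sheep left out also have fewer samples, and the cause of these shifts was not tested.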

Other observations

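Some genes were called on the same side in 3 comparisons. Called left-higher in control cardiomyocytes, paced cardiomyocytes and control whole tissue were 57 genes, and called right-higher in all 3 were 55. The left set had median differences of 1.15 in control cardiomyocytes, 0.85 in paced cardiomyocytes and 1.15 in control whole tissue, and the right set -1.20, -1.26 and -1.37. Control cardiomyocytes and control whole tissue come from the same sheep, and the calls were made in each of the 3 comparisons, so the sizes are a description.

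A few genes were called on opposite sides in control and paced cardiomyocytes. Right-higher in control and left-higher in paced sheep were 5 genes, at -0.93 to -0.57 in control and 0.18 to 0.86 in paced sheep, and 4 of them passed the test of the paced minus control difference. Left-higher in control and right-higher in paced sheep was 1 gene, at 1.19 and -1.12. Across genes the control mean difference correlated with that of single paced sheep at a Pearson r of 0.46 in D23, 0.44 in D24, 0.40 in D27, 0.41 in D16, 0.34 in D19 and 0.37 in D20.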
